A study of Mus musculus with 2 samples.

Results

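The cells described here are the cycling cells of 2 single-cell libraries of newborn mouse heart base. A barcode counted as a cell when it had at least 8000 UMIs, the counted RNA molecules, of which at most 20% were mitochondrial. Cycling cells were chosen by their measured RNA: a cell counted as cycling when 10 cell cycle genes (Ube2c, Top2a, Prc1, Cenpf, Mki67, Birc5, Ccna2, Tpx2, Cdc20 and Cdk1) together held at least 5 of every 10000 of its UMIs. The rule found 1329 cycling cells among 19575, of which 261 were among the 8926 cells of the dorsal library and 1068 among the 10649 cells of the ventral library.

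The dorsal tissue took in pulmonary veins, cardiac ganglia and sinoatrial node, and the ventral tissue took in outflow tract base, pulmonary artery and proximal aorta. Cells of 15 hearts of 3-day-old C57Bl6 mice, male and female, were combined into 1 dorsal and 1 ventral pool, and the labels name no transgene or treatment. Both pools were kept as adherent cultures for 5 days, and the attached cells were released with trypsin for droplet capture. Each domain is therefore 1 library of pooled animals, and only cells that attached in culture were collected. With 1 library per domain there is no replicate and no test, and every interval below is an exact 95% interval that covers counting error only.

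A cell that divides copies its DNA in S phase and parts the copies in mitosis, and each step uses its own set of genes. E2F factors turn on the S phase genes, and the DREAM and MuvB complexes act on the later genes through a promoter element called the CHR (cell cycle genes homology region), often with CCAAT boxes bound by NF-Y. In the heart of the newborn mouse cardiomyocytes are leaving the cell cycle, while fibroblasts, mural cells of the vessel wall, mesothelial cells of the outer surface and macrophages still divide.

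Most genes of the rule with a known promoter had this layout. RefSeq promoters (250 bases before to 50 after the start, GRCm38.p6, which is the mm10 build of the submitters' processing notes) were at hand for 8 of the 10 genes, all but Ccna2 and Tpx2. A CHR motif (TTTGAA or TTCGAA, either strand) was present in 7 of the 8, as was CCAAT (either strand), against 19.8% and 41.8% of 17999 measured genes with a promoter. Both motifs together were present in 7 of the 8, in 22 of 34 other G2 and mitosis genes (64.7%), in 3 of 24 S phase genes (12.5%) and in 8.13% of all genes. An E2F motif (TTCCCGC or TTTGGCGC, either strand) was present in 14 of the 24 S phase genes (58.3%), in none of the 8 rule genes, in 1 of the 34 other G2 and mitosis genes and in 7.36% of all genes. A match describes the letters and does not show that a factor was bound. The 100 bases before the start of 4 rule genes are printed as examples that hold both motifs there. In that stretch Mki67 held a CHR alone, and Cenpf and 1 of the 2 Prc1 starts held CCAAT alone. Birc5 held neither motif in its 300 bases. CHR and CCAAT letters of either strand are in capitals, from chr2:164769829-164769928 (plus strand), chr11:99024190-99024289, chr4:118437344-118437443 and chr10:69352913-69353012 (minus strand):

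Ube2c: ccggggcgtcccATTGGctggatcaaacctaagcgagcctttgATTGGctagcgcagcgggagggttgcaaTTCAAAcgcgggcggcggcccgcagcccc

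Top2a: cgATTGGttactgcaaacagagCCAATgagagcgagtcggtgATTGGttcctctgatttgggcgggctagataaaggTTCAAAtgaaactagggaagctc

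Cdc20: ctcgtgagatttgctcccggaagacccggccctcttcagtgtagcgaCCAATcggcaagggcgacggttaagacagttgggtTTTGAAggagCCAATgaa

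Cdk1: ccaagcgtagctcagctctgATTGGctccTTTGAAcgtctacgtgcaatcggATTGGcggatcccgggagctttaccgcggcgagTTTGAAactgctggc

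The same stretch of 2 S phase genes is printed for its E2F letters, in capitals. CCAAT is no mark of the late genes alone: it was present in 16 of 24 S phase promoters (66.7%), and the Mcm6 stretch holds it too, left in lower case. They are Mcm6, a subunit of the replicative helicase (chr1:128359706-128359805, minus strand), and Hells, a chromatin remodeller (chr19:38930890-38930989, plus strand):

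Mcm6: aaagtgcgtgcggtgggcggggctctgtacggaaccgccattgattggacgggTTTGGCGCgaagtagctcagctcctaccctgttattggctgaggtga

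Hells: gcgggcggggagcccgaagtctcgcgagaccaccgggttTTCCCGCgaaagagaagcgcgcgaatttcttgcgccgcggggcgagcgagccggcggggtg

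The values that chose the cells are given as a description. Ube2c, the E2 enzyme of the anaphase-promoting complex, stood at 483 CPM (UMIs summed over cells and scaled to a common total) in dorsal cycling cells and 3.14 CPM in the other dorsal cells. In the ventral library it stood at 571 and 4.52 CPM. Mki67, the proliferation antigen, stood at 261 against 1.56 CPM and at 259 against 1.69 CPM. The median member held 22.6 (dorsal) and 24.4 (ventral) rule UMIs per 10000, with highest values of 146 and 141. All 10 genes were detected in 58.6% of dorsal and 56.8% of ventral members. Few cells lay close to the minimum: 9 dorsal and 44 ventral members scored 5 to 6, and 20 dorsal and 56 ventral cells outside the set scored 4 to 5. Just inside the minimum the median cell held 13.5 (dorsal) and 15.5 (ventral) UMIs per 10000 of 40 other G2 and mitosis genes, and just outside it held 10.3 and 10.4.

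Cycling cells held more RNA than the other cells of their library. The median was 35007 against 22521 UMIs in the dorsal and 26752.5 against 20972 in the ventral library. After each cell was thinned to 8000 UMIs the medians were 2679 against 2526 genes and 2698 against 2504 genes. The mitochondrial share was alike, at medians of 3.04% against 3.03% and 4.08% against 4.12%. Scrublet, a doublet caller, marked 21.1% of dorsal cycling cells against 6.58% of other cells, and 14.8% against 7.54% in the ventral library. A total of 22 barcodes were called as cells in both libraries, and none of them was cycling in both. Depth and doublet values are given beside the results they touch, and their part in those results was not tested.

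Cycling cells made up 2.92% of dorsal cells (2.58 to 3.29) and 10.0% of ventral cells (9.46 to 10.6). The ventral share was 3.43 times the dorsal share (2.80 to 4.21), a gap wider than counting error, although the spread between animals is unknown. With the marked doublets left out the shares were 2.48% and 9.32%. To see how much of the gap moved with the cell makeup, both libraries were weighted to the same mix of 8 identities. The ratio was then 3.44 with the dorsal mix, 4.17 with the ventral mix and 3.77 with their mean.

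Identities came from clusters of the cells outside the set, made without cycle genes, and each cycling cell took the cluster held by most of its 15 nearest neighbours. The median cycling cell had all 15 neighbours in 1 cluster in both libraries, and 12 dorsal and 57 ventral cycling cells had fewer than 8 of 15. Clusters were named from marker lists and carry the ending "-like". The names rest on clusters rebuilt here, and the clusters of each library were found separately.

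**Figure D1:**
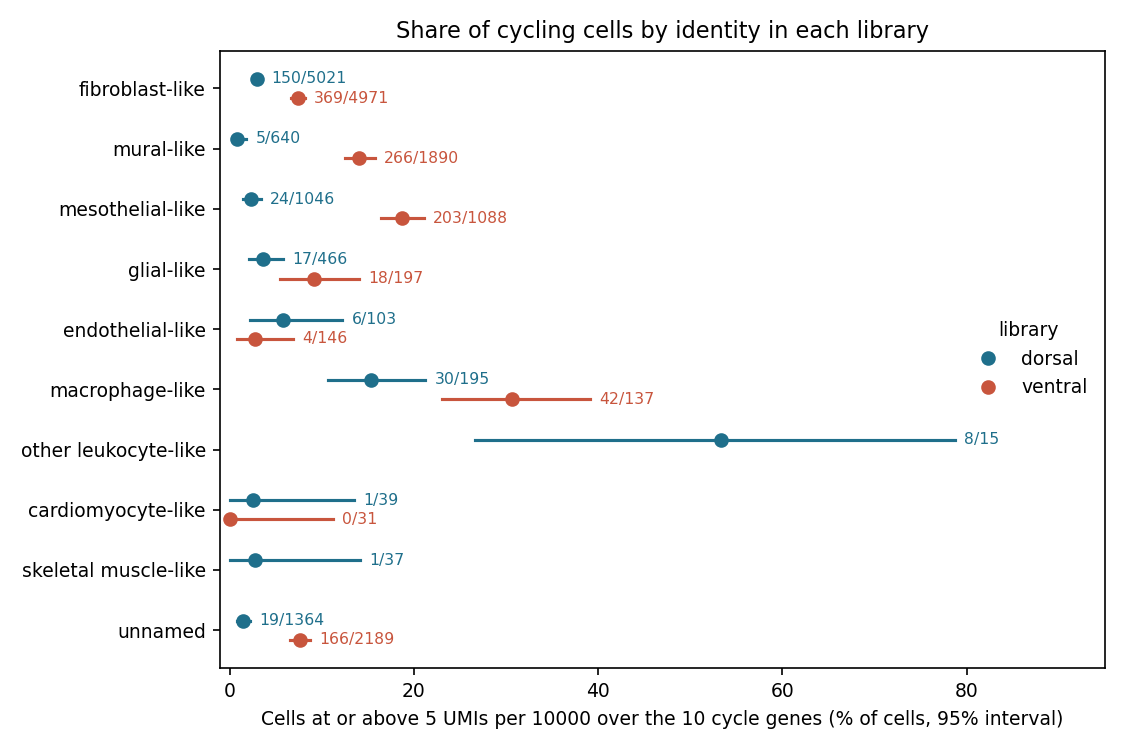
Share of cycling cells (x axis, percent of the cells of an identity) for each identity (y axis) in the dorsal and the ventral library, with exact 95% intervals as lines and counts beside them. Mural-like cells stand at 0.781% (dorsal) and 14.1% (ventral), and macrophage-like cells stand above 15% in both.

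Fibroblast-like cells were the most frequent cycling cells in both libraries. In the dorsal library 150 of 5021 cycled (2.99%, 2.53 to 3.50), and they made up 57.5% of cycling and 56.2% of other cells. In the ventral library 369 of 4971 cycled (7.42%, 6.71 to 8.19), and they made up 34.6% of cycling and 48.0% of other cells. The share was not even across fibroblast-like clusters. In the dorsal library it was 5.52% in the cluster led by Ankrd1, a stretch-responsive YAP target, and 4.36% in the cluster led by Ly6a and Igfbp3. It was 1.01% in the cluster led by Adamtsl2 and 0.563% in the cluster led by Car3. In the ventral library it was 13.8% in the cluster led by Cxcl13 and Igfbp3, 9.05% in the cluster led by Cxcl12 and 4.23% in the cluster led by Cxcl5 and Gpx3. The first pair of dorsal clusters also had the deeper cells, with medians of 38173.5 and 30532 UMIs against 24835 and 21725 in the other pair. The part of depth was not tested.

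Mural-like cells differed most between the libraries among the identities with cycling cells in both. Here mural means a cluster with smooth muscle or pericyte markers. In the dorsal library 5 of 640 cycled (0.781%, 0.254 to 1.81) and in the ventral library 266 of 1890 did (14.1%, 12.5 to 15.7), a ratio of 18.0 (6.23 to 75.1). The dorsal cells lay in clusters led by Rgs5, by Cnn1 and Actg2, and by Cxcl14 and Grem1, with 2, 2 and 1 cycling cells. The ventral count rested on how clusters were drawn: it was 143 of 1168 at a clustering resolution of 0.5, 140 of 1137 at 2.0 and 156 of 1436 with a score minimum of 10. The ventral cells lay mainly in a cluster led by Igfbp2, Sost and Myh11 (124 of 811, 15.3%) and in another led by Cxcl12 and Fgf18 (124 of 764, 16.2%). The second of these had 1 smooth muscle gene, Lmod1, among its 10 leading genes, and at resolution 2.0 the cluster led by the same genes took the fibroblast-like name. A ventral cluster led by Higd1b and Casq2 had 7 of 234 (2.99%). At depth 8000 Myh11, the smooth muscle myosin, was seen in 55.3% of ventral mural-like cycling cells and 51.2% of other mural-like cells, and in 1.46% of ventral macrophage-like cells (137 cells, median 26859 UMIs), which give its background.

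Mesothelial-like cells, which line the heart's outer surface, followed with 24 of 1046 in the dorsal (2.29%, 1.48 to 3.39) and 203 of 1088 in the ventral library (18.7%, 16.4 to 21.1), a ratio of 8.13 (4.52 to 15.5). Scrublet marked 41.7% of the dorsal cycling cells of this identity, and without marked cells the dorsal share was 14 of 966 (1.45%) while the ventral share was 18.0%. The dorsal class joined a cluster led by Msln (16 of 637) with a cluster led by Calca and Saa3 (8 of 409), whose 10 leading genes hold no mesothelial list gene, so the class is mixed. Only 2 dorsal cycling cells carried at least 3 mesothelial genes at depth 8000. The markers of the cycling cells also differed. At depth 8000 Upk3b, an uroplakin of the mesothelial surface, was seen in 156 of 203 ventral cycling cells (76.8%) and 75.3% of other mesothelial-like cells. In the dorsal library it was seen in 1 of 24 cycling cells (4.17%, 0.105 to 21.1) and in 21.3% of others (18.9 to 24). Msln, mesothelin, was seen in 37.5% of dorsal cycling and 40.9% of dorsal other mesothelial-like cells, and in 91.1% and 91.0% of the ventral ones.

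Macrophage-like cells had the highest cycling share of any named cluster in each library. The share was 30 of 195 in the dorsal (15.4%, 10.6 to 21.2) and 42 of 137 in the ventral library (30.7%, 23.1 to 39.1), a ratio of 1.99 (1.0 to 4.0). They were 11.5% of dorsal cycling cells against 1.90% of other cells, and 3.93% against 0.992% in the ventral library. Lyz2, lysozyme, was seen at depth 8000 in 30 of 30 and 41 of 42 of the cycling cells. It was seen in 17.4% and 8.12% of glial-like cells, taken here as the background of free RNA. Over all cells outside the set, macrophage-like ones included, it was seen in 18.8% and 19.5%. Csf1r, the receptor for macrophage growth factor, was seen in 15 of 30 and 31 of 42 cycling cells and in 0.858% and 0.508% of glial-like cells. Over all cells outside the set the Csf1r values were 3.67% and 2.26%. Scrublet marked 30% and 23.8% of these cycling cells, and without marked cells the shares were 13.3% and 29.1%.

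A few cells with genes of other white blood cells were set apart after their genes had been seen. There were 15 such cells in the dorsal library, 8 of them cycling (53.3%, 26.6 to 78.7), and none in the ventral library. Of the 8, 7 carried Cd3g, a chain of the T cell receptor complex, at 7 to 23 UMIs each, and Trbc2, a receptor constant region. The other one held 1706 UMIs of S100a8, the neutrophil calprotectin subunit, and no Cd3g or Trbc2.

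Glial-like cells had 17 of 466 cycling in the dorsal (3.65%, 2.14 to 5.78) and 18 of 197 in the ventral library (9.14%, 5.51 to 14.1). The ratio was 2.5, with an interval of 0.837 to 7.49 that holds equal shares. Sox10, the factor that defines neural crest glia, was seen at depth 8000 in 10 of the 17 and 14 of the 18, and in 0.513% and 0% of macrophage-like cells. Endothelial-like cells had 6 of 103 cycling in the dorsal (5.83%, 2.17 to 12.2) and 4 of 146 in the ventral library (2.74%, 0.751 to 6.87), and their intervals overlap. All 6 dorsal and all 4 ventral cells held Cdh5, the endothelial cadherin, at depth 8000, against 0.513% and 0.730% of macrophage-like cells. Scrublet marked 33.3% of the ventral glial-like cycling cells and 2 of the 4 ventral endothelial-like ones.

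Muscle cells were rare in the set. Cardiomyocyte-like cells had 1 of 39 cycling in the dorsal library and 0 of 31 in the ventral library, which allows a share of up to 9.68% (3 counts of the total; the exact upper bound is 11.2%). The dorsal cell held 214 UMIs of Myl7, 71 of Myh6 and 340 of Tnnt2, all sarcomere genes of heart muscle, beside 44 of Col1a2, and Scrublet did not mark it. Skeletal muscle-like cells had 1 of 37 cycling, all in the dorsal library. That cell held 125 UMIs of Myog, a late myogenic factor, and 558 of Mylpf, a fast myosin light chain, and its score of 9.97 lay below the stricter minimum of 10. In unnamed clusters 19 of 1364 dorsal cells (1.39%) and 166 of 2189 ventral cells (7.58%) cycled.

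The markers were also counted cell by cell, with no clustering. A cell carried a list when at least 3 of its genes had a UMI at depth 8000. The macrophage list was carried by 11.9% of dorsal cycling cells (8.21 to 16.4) against 2.11% of other cells, and by 3.75% (2.69 to 5.07) against 1.10% in the ventral library. At full depth these shares were 15.7% against 4.74% and 5.06% against 1.92%. The mesothelial list went opposite ways: 0.766% (0.0929 to 2.74) against 3.17% in the dorsal library and 16.9% (14.7 to 19.3) against 7.91% in the ventral library. At full depth the dorsal values were 7.28% against 7.09%, so the dorsal gap was not seen there, and the ventral values were 20.7% against 9.88%. The smooth muscle list was carried by 25.7% of dorsal cycling cells against 24.9% of other cells, and by 74.9% (72.2 to 77.5) against 61.1% (60.2 to 62.1) in the ventral library. The glial list was carried by 7.28% (4.44 to 11.1) against 5.10% and by 1.59% (0.930 to 2.54) against 1.81%. The fibroblast list was carried by 90.4% against 97.5% and 97.8% against 98.4%. At depth 8000 no dorsal cycling cell carried the chondrogenic, neuronal, epithelial or erythroid list, which allows a share of up to 1.15% each at that depth (3 counts of the total; the exact upper bound is 1.40%). At full depth the neuronal list was carried by 1.53% and the chondrogenic list by 0.383% of dorsal cycling cells. Of 6 lists that define a type, 2 or more were carried by 2 dorsal and 2 ventral cycling cells.

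Cycling cells carried genes of S phase and genes of G2 and mitosis. Lists of 30 S phase and 40 G2 and mitosis genes, none of them in the rule, were counted at depth 8000, with a limit of 10 UMIs per 10000 chosen after the values were seen. In the dorsal library 139 cycling cells passed both limits, 118 the G2 and mitosis limit alone, 1 the S limit alone and 3 neither. In the ventral library these counts were 728, 315, 20 and 5. The S phase limit was thus passed by 53.6% of dorsal and 70.0% of ventral cycling cells, and the G2 and mitosis limit by 98.5% and 97.7%. The latter shares follow largely from the choice of cells by late genes, and the list does not tell G2 from mitosis. The rule genes peak late in the cycle, so cells in early S phase can lie outside the set: 94 other dorsal cells and 341 other ventral cells passed the S limit alone. Within identities the share of cycling cells past both limits was 54.7% in dorsal and 66.9% in ventral fibroblast-like cells, 43.3% and 59.5% in macrophage-like cells, 45.8% and 69.5% in mesothelial-like cells, and 47.1% and 77.8% in glial-like cells. It was higher in the ventral library in each of these 4 identities, but the shares rest on as few as 17 cells, and the part of depth and free RNA was not tested.

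**Figure D2:**
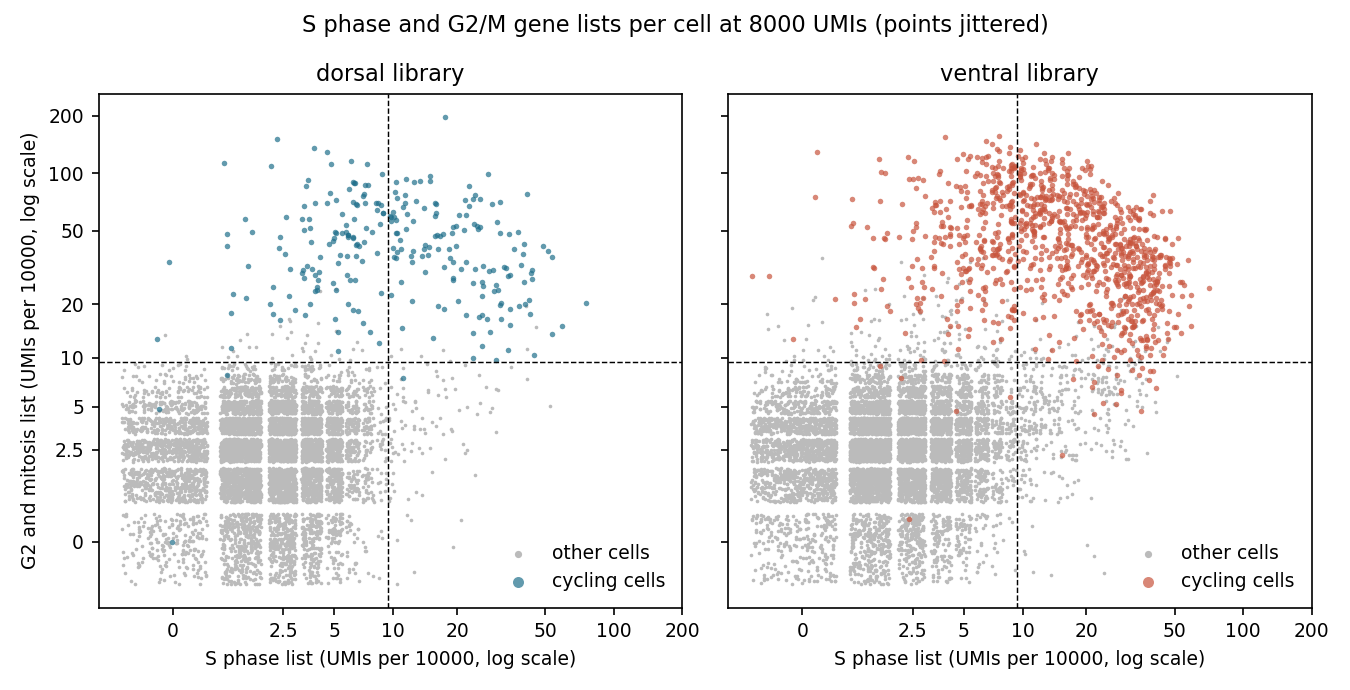
UMIs per 10000 of the S phase list (x axis, log scale) and of the G2 and mitosis list (y axis, log scale) in each cell at depth 8000, jittered, for the dorsal and the ventral library, with cycling cells in color, other cells in grey and dashed lines at 10. Cycling cells lie above the horizontal line in 98.5% (dorsal) and 97.7% (ventral) of cases and spread across the vertical one.

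Genes were then compared between cycling and other cells of the same library, counting a gene when the CPM ratio was 2-fold or more and either side reached 20 CPM. The rule draws on the same transcriptomes, so these counts are a description. In the dorsal library 426 of 6139 genes were higher (6.94%) and 104 lower (1.69%). In the ventral library 374 of 5841 were higher (6.4%) and 22 lower (0.377%). The lower counts were 43 and 9 against other cells of the same identity mix, and the ventral one was 38 with TMM scaling and 41 without marked doublets. Of 5516 genes at 20 CPM in both, 314 were higher and 10 lower in both libraries, and none went opposite ways. The rule and cycle lists held 101 of the 314.

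**Figure D3:**
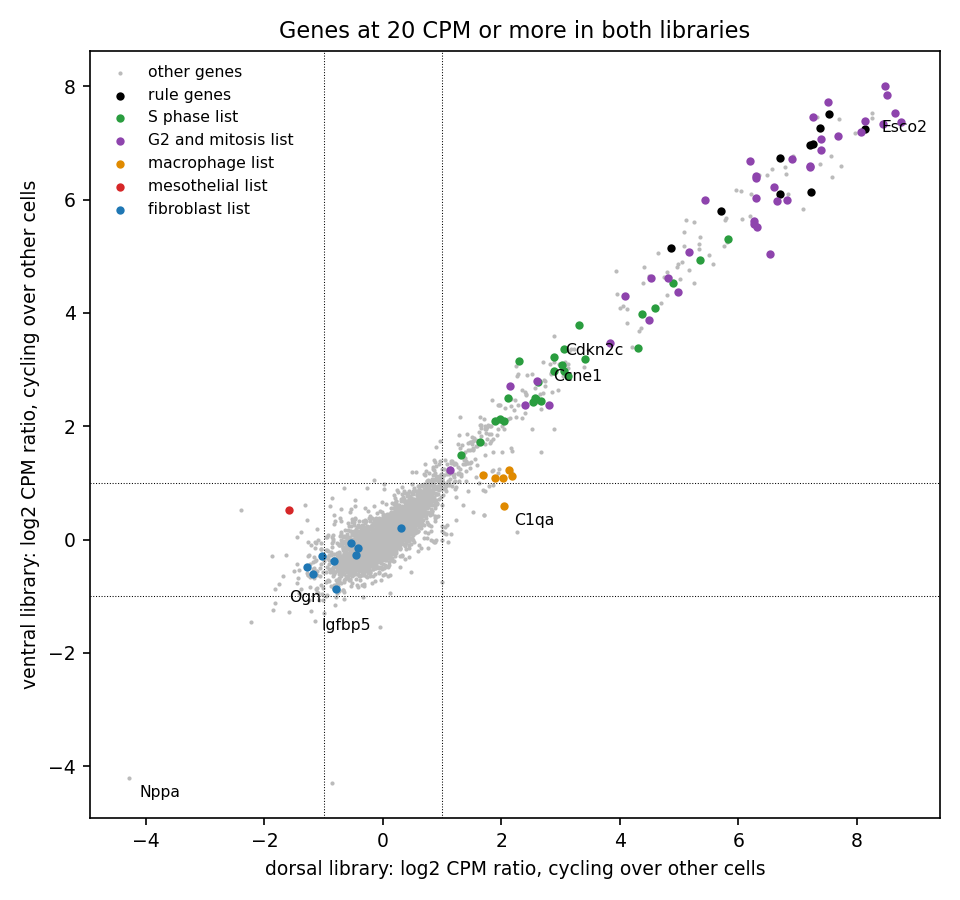
log2 CPM ratio of cycling over other cells in the dorsal (x axis) and ventral library (y axis) for the 5516 genes at 20 CPM or more in both, with rule genes and 5 lists in color and dotted lines at 2-fold. Cycle genes form the upper right arm, and the macrophage list lies farther to the right than up.

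Every S phase gene on the list (30 of 30) and every other G2 and mitosis gene (40 of 40) was at least 2-fold higher in both libraries, where 8.9% (dorsal) and 7.76% (ventral) of all genes with at least 50 UMIs were. The list medians were 2.89 and 2.97 (log2) for S phase and 6.31 and 6.01 for G2 and mitosis, beside 0.0281 and 0.0644 over all those genes. Rrm2, the ribonucleotide reductase subunit that supplies DNA precursors, stood at 101 against 1.78 CPM in the dorsal and 143 against 3.62 CPM in the ventral library. Mcm6 stood at 56.8 against 9.80 CPM and 77.3 against 14.3 CPM. Plk1, a mitotic kinase, stood at 98.4 against 0.351 CPM and 107 against 0.639 CPM, and Ccnb1, the mitotic cyclin, at 161 against 1.33 CPM and 169 against 1.60 CPM. Pcna, the replication clamp, stood at 63.1 against 15.3 CPM and 68.7 against 16.1 CPM. Summed over each list, other cells held about as much of the late as of the S phase genes: 269 and 244 CPM in the dorsal and 311 and 293 CPM in the ventral library. The rule chose the other cells as low in late genes.

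Beyond these lists, 12 genes with the highest ratios in both libraries were named. Esco2, which acetylates cohesin, was at 30.5 against 0.100 CPM in the dorsal (log2 8.25, 7.62 to 8.95) and 47.2 against 0.257 CPM in the ventral library (7.52, 7.14 to 7.93). The kinetochore genes Casc5, Ndc80, Nuf2 and Ska1, the abscission gene Cep55, the condensin subunit gene Ncapg and Cdca2, Depdc1a, Mxd3 (a MAX-network factor), Fam64a and Neil3 (a DNA glycosylase) had log2 ratios of 6.45 to 8.26. Of 20 chromatin and tubulin genes, 17 dorsal and 18 ventral were 2-fold higher. Stmn1, which unbuilds microtubules, was at 524 against 57.8 CPM and 522 against 50.8 CPM, and Hmgb2, a chromatin protein, at 730 against 84.1 CPM and 668 against 82.0 CPM. Replication-dependent histones were 2-fold higher for 10 of 12 measured genes in each library, such as Hist1h1b at 81.6 against 2.13 and 68.2 against 2.94 CPM. Hist1h2bc was an exception at 60.3 against 176 CPM in the ventral and 71.3 against 73.5 CPM in the dorsal library.

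**Figure D4:**
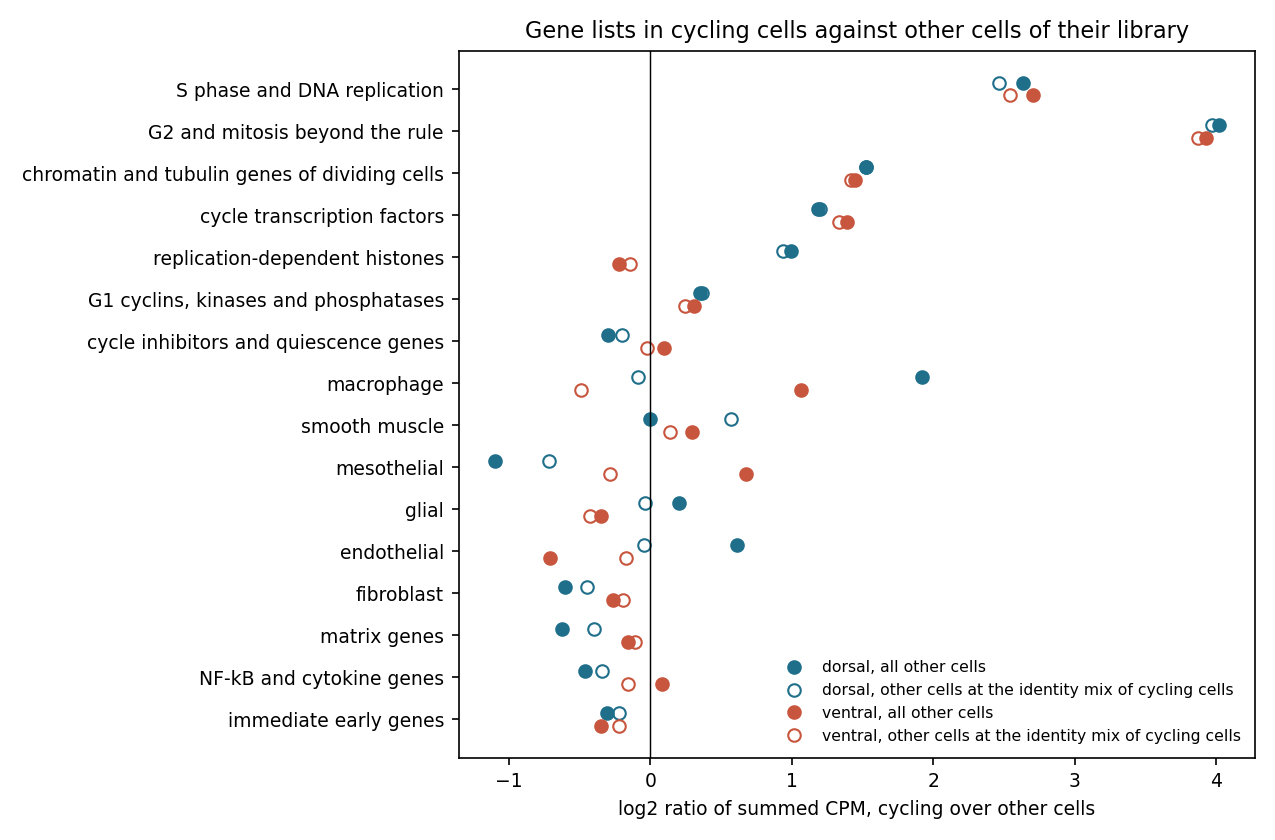
log2 ratio of summed CPM of cycling over other cells (x axis) for 16 gene lists (y axis) in the dorsal and ventral library, with filled points against all other cells and open points against other cells weighted to the identity mix of the cycling cells. The macrophage list moves from 1.92 to -0.09 (dorsal) and from 1.07 to -0.49 (ventral), while the S phase list stands at 2.47 and 2.54 at that mix.

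Genes that guide entry into the cycle behaved less evenly. Of 11 G1 cyclins, kinases and phosphatases, 7 dorsal and 6 ventral were 2-fold higher, where 8.9% and 7.76% of all genes with 50 UMIs were. Ccne1, the cyclin of S phase entry, stood at 31.4 against 4.84 CPM in the dorsal and 48.1 against 5.49 CPM in the ventral library, and Ccne2 at 15.1 against 0.629 CPM and 30.4 against 1.45 CPM. The D cyclins differed among themselves: Ccnd1 stood at 90.1 against 40.5 CPM in the dorsal (log2 1.15) and 67.0 against 62.3 CPM in the ventral library (0.10). Ccnd2 had log2 ratios of -0.43 and -0.24, and Ccnd3 of -0.06 and 0.14. Of 17 cycle transcription factors, 10 were 2-fold higher in each library, against the same shares. Among them Foxm1, which drives mitotic genes, was at 28.3 against 1.01 CPM and 28.5 against 1.08 CPM, and the repressor E2f8 at 13.1 against 0.210 CPM and 18.0 against 0.284 CPM. E2f4, a repressor E2F of resting cells, was at 34.3 against 24.1 CPM and 29.0 against 20.6 CPM.

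Of 14 cycle inhibitors 3 were 2-fold higher in each library, where 8.9% and 7.76% of all genes were. Only 1 was 2-fold lower, in the dorsal library, where 7.03% were, and the medians were -0.18 and 0.20. The 3 were the same: Cdkn2c (52.6 against 7.08 CPM and 73.3 against 6.08 CPM) and Cdkn2d (54.5 against 10.2 CPM and 95.8 against 16.2 CPM), which bind Cdk4 and Cdk6, and Rbl1 (17.0 against 2.26 CPM and 18.1 against 2.0 CPM), a pocket protein. The lower gene was Cdkn1c, the p57 inhibitor, at 81.2 against 170 CPM in the dorsal and 116 against 163 CPM in the ventral library. Cdkn1a, the p21 inhibitor, was at 291 against 308 CPM and 215 against 274 CPM.

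Lower genes were fewer, and some single genes of heart muscle and of the matrix were among them. Nppa, the atrial natriuretic peptide, was the lowest of the 12 named genes in both libraries, at 21.2 against 413 CPM in the dorsal (log2 -4.29) and 1.46 against 26.9 CPM in the ventral library (-4.21). Against other cells of the same identity mix the values were -3.74 and -0.75. Tnnc1, a troponin, was at -2.22 and -1.45, and at -2.05 and -0.26 at the same mix. In the dorsal mix the cardiomyocyte-like profile is weighted by 1 cycling cell, which held 27 Nppa UMIs among 29800. The ventral mix holds 0 such cells, so the dorsal values at this mix rest on very few muscle cells. Trnp1, Tmem150a, Igfbp5 (an IGF binding protein), Gpx3 (a secreted peroxidase), Aspn (a matrix proteoglycan), Ypel3, Ism1, Tspan17, Adamtsl2 and Lbp followed with log2 ratios of -0.96 to -1.85. Of these 10, all kept values of -0.75 or below at the same mix. Of 10 fibroblast markers 4 dorsal and 1 ventral were 2-fold lower, where 7.03% and 3.14% of all genes with 50 UMIs were. Dcn, decorin, was at 882 against 1799 CPM and 1081 against 1317 CPM, and Lum, lumican, at 141 against 342 CPM and 321 against 449 CPM. Of 19 matrix genes 2 were 2-fold lower in the dorsal library (Ogn at 94.1 against 318 CPM and Fbln1 at 102 against 252 CPM) and none was in the ventral library. These counts lie near the shares of all genes with 50 UMIs, 7.03% and 3.14%. Of 12 immediate early genes none was 2-fold different in either library, with medians of -0.39 in each.

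To separate cycling from identity, cycling cells were set against other cells of their own identity. In fibroblast-like cells 374 of 5898 dorsal genes were 2-fold higher and 81 lower, and 370 of 5752 ventral genes were higher and 23 lower. Ogn, osteoglycin, was at 99.1 against 316 CPM in dorsal (log2 -1.67, -1.80 to -1.55) and 206 against 321 CPM in ventral fibroblast-like cells (-0.64, -0.70 to -0.58). Gpx3 was at 176 against 422 CPM and 724 against 1642 CPM, or -1.26 and -1.18. Igfbp5 was at 73.4 against 135 CPM and 23.5 against 66.3 CPM. Each of these 3 genes lay further below 0 without marked doublets (Ogn -1.94 and -0.75, Gpx3 -1.56 and -1.47, Igfbp5 -0.98 and -1.72). The fibroblast-like identity pools clusters with uneven cycling shares. Gpx3 and Igfbp5 are among the leading genes of a ventral cluster with 4.23% cycling cells, against 13.8% in the cluster led by Cxcl13. These pooled values therefore do not separate cycling from the mix of clusters.

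Over all dorsal cycling cells none of 10 smooth muscle genes was 2-fold higher and 5 were 2-fold lower, with a median of -1.03, beside 8.9% and 7.03% of all genes. Acta2 and Tagln, however, were higher within dorsal fibroblast-like and mesothelial-like cells. Acta2, smooth muscle actin, stood at 1165 CPM in dorsal fibroblast-like cycling cells and 510 CPM in the other cells of that identity (log2 1.19, 1.15 to 1.23). It had a UMI at depth 8000 in 81.3% and 57.7% of those cells, and in 33.3% of dorsal macrophage-like cells, which give its background. In dorsal mesothelial-like cells it stood at 909 against 274 CPM (1.73, 1.63 to 1.84). That class is mixed and held 24 cycling cells. Its mesothelial list stood at 241 CPM in cycling and 532 CPM in other cells (log2 -1.14). The dorsal mesothelial-like values therefore do not separate cycling from the mix of cells under this name. The Acta2 ratio was above 0 in all 5 dorsal fibroblast-like clusters with at least 10 cycling cells, from 0.45 to 1.98. In the ventral library, where the level was higher in all cells, it was 5112 against 3857 CPM in fibroblast-like (0.41) and 4244 against 3416 CPM in mesothelial-like cells (0.31). In ventral mural-like cells cycling and other cells stood at 15337 and 16095 CPM (-0.07). Dorsal macrophage-like cycling cells stood below their identity (59.5 against 246 CPM, -2.05) and dorsal glial-like ones at -0.01. In ventral glial-like cells the value was 1.17, and -0.71 without marked doublets. Without marked doublets the dorsal fibroblast-like and mesothelial-like values were 1.28 and 2.03. Tagln, another smooth muscle gene, showed 0.89 and 1.51 in the dorsal library and 0.20 and 0.14 in the ventral one.

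Ccnd1, the cyclin D1 gene that growth factors turn on, differed by identity. In dorsal fibroblast-like cells it was at 68.7 against 14.3 CPM (log2 2.26, 2.10 to 2.42) and was seen at depth 8000 in 18.0% against 7.31% of cells. In ventral fibroblast-like cells it was at 53.6 against 38.4 CPM (0.48). In glial-like cells, whose level was the highest of these identities, it was at 618 against 700 CPM in the dorsal and 523 against 973 CPM in the ventral library (-0.18 and -0.90). Cdkn1c was lower in ventral mural-like cycling cells, at 66.9 against 201 CPM (-1.59, -1.74 to -1.45), and at -0.72 and -0.29 in dorsal and ventral fibroblast-like cells. Fibroblast-like and mural-like identities pool clusters with uneven cycling shares, so these values do not separate cycling from the mix of clusters. Scrublet marked 18.7% of dorsal fibroblast-like cycling cells and 5.89% of the others, and the part of doublets in these values was not tested.

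Complement genes, which mark macrophages, were near the level of other macrophage-like cells in dorsal cycling cells and lower in ventral ones. C1qa was at 1327 against 1321 CPM in dorsal cells (log2 0.01, -0.06 to 0.08) and 1200 against 2501 CPM in ventral cells (-1.06, -1.14 to -0.98). C1qc was at 0.16 and -0.51, and C1qb at 0.11 and -0.39. At depth 8000 C1qa was seen in 27 of 30 dorsal cycling and 79.4% of other macrophage-like cells, and in 32 of 42 ventral cycling (76.2%, 60.5 to 87.9) and 91.6% of others (84.1 to 96.3). Without marked doublets the ventral value was -1.23.

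Between dorsal and ventral cycling cells 308 of 6197 genes stood 2-fold higher on the dorsal side (4.97%) and 336 on the ventral side (5.42%). Between other cells the shares were 4.78% and 4.69% of 5754 genes. Of 5487 genes measured in both comparisons, 192 leaned 2-fold to the dorsal and 220 to the ventral side in both, and none went opposite ways. All 10 rule genes, 30 S phase genes and 40 other G2 and mitosis genes stayed within 2-fold between the cycling cells of the domains. Cells of both domains were chosen by the same minimum of rule UMIs, so closeness in the rule genes is no separate result. The part of the choice in the other cycle genes was not tested. Summed over the S phase list, dorsal over ventral was log2 -0.34 in cycling and -0.26 in other cells. For the other G2 and mitosis genes it was -0.13 and -0.21.

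**Figure D5:**
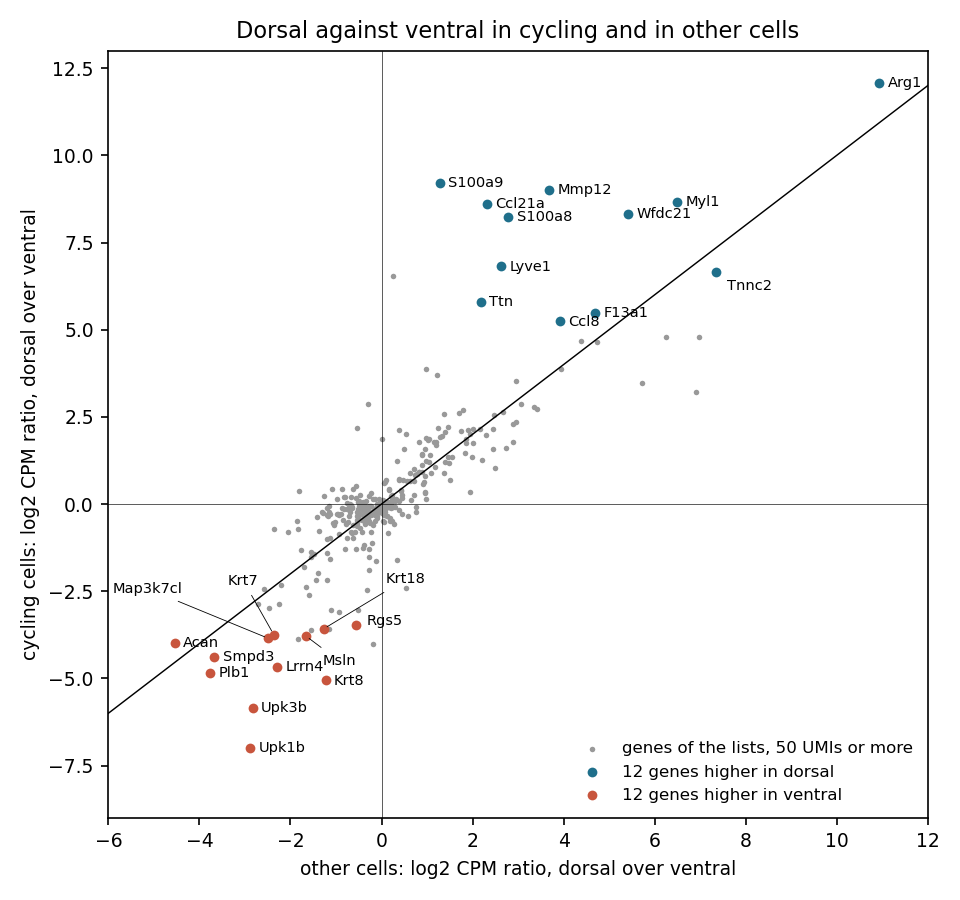
log2 CPM ratio of dorsal over ventral in other cells (x axis) and in cycling cells (y axis) for the 12 highest and 12 lowest named genes (color) and for list genes with at least 50 UMIs (grey), with a line of equality. Upk1b and Upk3b lie at -6.99 and -5.85 in cycling cells and at -2.88 and -2.83 in other cells.

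Several of the genes with the highest dorsal ratios came from few cells. S100a9 (99.9% of its UMIs) and S100a8 (94.0%) came mostly from the 1 cell with neutrophil genes, Mmp12, a macrophage elastase, took 88.0% from 1 cell, and Myl1 and Tnnc2, fast muscle genes, took 93% and 94.6% from the skeletal muscle-like cell. Arg1, arginase 1, had 1370 UMIs in 27 cells, 28.6% of them from 1 cell and 99.6% in macrophage-like cells. Ventral cycling cells held 1 UMI of Arg1 (141 against 0.0323 CPM, log2 12.09, 9.61 to 17.4). The other cells differed nearly as much in Arg1, at 44.0 against 0.0225 CPM (log2 10.93). F13a1, a coagulation factor of resident macrophages, was at 60.5 against 1.36 CPM over 31 cells, and at 13.5 against 0.522 CPM in other cells. Lyve1 and Ccl21a, genes of lymphatic endothelium, were at 94.8 against 0.841 CPM and 75.3 against 0.194 CPM, with 93.3% and 99.7% of UMIs in endothelial-like cells. They too came from few cells: Lyve1 took 29.4% from 1 of 19 cells and Ccl21a took 50.8% from 1 of 7.

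The ventral side was led by mesothelial and mural genes spread over many cells. Upk1b was at 0.617 CPM (6 UMIs) in dorsal and 78.5 CPM in 221 ventral cycling cells, log2 -6.99 (-8.44 to -5.87), and Upk3b at 1.23 against 71.1 CPM. Krt8, Krt7 and Krt18, keratins of lining cells, were at -5.06, -3.74 and -3.58, and Lrrn4 and Msln at -4.68 and -3.78. Of 9 mesothelial genes with 50 UMIs in the cycling cells 8 were 2-fold higher in ventral cells, where 6.23% of all such genes were, and their median was -3.74 against -2.29 in the other cells. Of 10 smooth muscle genes 8 were 2-fold higher in ventral cells, with medians of -2.11 and -0.87. Cnn1, calponin, was at 22.4 against 184 CPM in cycling cells. Acan, aggrecan, and Plb1, found mainly in mural-like cells, were at -3.99 and -4.84, and Rgs5, a pericyte gene, at -3.48.

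Inflammatory and regional genes also differed between the cycling cells of the domains. Of 13 NF-kB and cytokine genes 11 were 2-fold higher in dorsal cells, where 7.74% of all genes were, with a median of 2.0 in cycling and 2.47 in other cells. Cxcl2, a neutrophil chemokine, was at 701 against 27.8 CPM. Of 13 glycolysis and hypoxia genes 8 were 2-fold higher in dorsal cells, with medians of 1.12 and 0.97. Of 13 cardiac mesenchyme factors with 50 UMIs, 3 were 2-fold higher in dorsal and 5 in ventral cycling cells. The shares of all such genes were 7.74% and 6.23%. The list median was -0.85 in cycling and -0.55 in other cells, so the list leaned to the ventral side in both. As examples, Tbx5 and Tbx3, T-box factors of the inflow region, were at 5.45 against 0.873 CPM and 14.6 against 3.30 CPM in dorsal and ventral cycling cells. Tbx20, Hand2 and Gata6, factors of heart mesenchyme, were at 7.71 against 41.9, 13.3 against 46.0 and 68.3 against 167 CPM. Isl1, a factor of cardiac progenitors and the sinoatrial node named in the series' title, had 3 UMIs in dorsal cycling cells (0.308 CPM) and 53 in ventral cycling cells (1.71 CPM), against 1.19 and 1.48 CPM in other cells. At depth 8000 it was seen in 0.383% of dorsal and 1.59% of ventral cycling cells, where macrophage-like cells showed 0% and 0.730%, so that most cycling cells gave no reading of it at this depth.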

How the data were processed

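RNA of single cells was counted in 1 dorsal and 1 ventral library. Per the labels' protocols, 10x Genomics 3' v3 kits were used. The submitters' processing notes name mm10 and Cell Ranger 3.0.2. Each deposited matrix holds the authors' raw UMI counts over 28692 genes and 6794880 barcodes, with totals of 246920028 (dorsal) and 264822916 UMIs (ventral), without selection of cells. The cycling cells and all gene lists were chosen with earlier results of these data known.

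Cells outside the set were clustered per library in scanpy 1.11.5 (2000 variable genes, 30 components, 15 neighbours, Leiden resolution 1.0), leaving out cycle and mitochondrial genes and those 2-fold higher in cycling cells of both libraries. A cluster took a name when at least 3 markers, and 1 in 3 of a list, were in 25% of its cells and 2-fold higher than elsewhere (fibroblast: 5 markers in 50%). A name was refused where another list held more of the cluster's 10 leading genes, with smooth muscle and pericyte genes counted together. Clusters that met the fibroblast minimum could thus stay unnamed. Scrublet's automatic threshold marked 0 dorsal cells, so the 625 dorsal and 880 ventral cells of highest score, the expected share, were marked, and none was removed. Cells carrying at least 3 other-leukocyte genes and fewer than 3 macrophage genes were set apart after the data were seen. UMIs were summed per side and scaled to CPM. Intervals are Clopper-Pearson for shares and exact conditional for ratios. Named genes were the 12 highest and 12 lowest ratios at 20 CPM, leaving out cycle, mitochondrial, ribosomal protein and provisional names, plus list members as examples. TMM scaling (edgeR 4.0.16), other minimums and the removal of doublets were tried as alternatives. On simulated counts with 200 changed genes, all 50 genes at each of 3-fold and 4-fold up and down were recovered in both libraries, among 5465 (dorsal) and 5226 (ventral) genes. The simulated counts held counting error only and no variation between cells, so this checks the code and not the gene counts of the data. RefSeq promoters were matched by symbol.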

Additional observations from a re-analysis of the deposited data

How the results depend on the processing

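Of 116 alternative values, 87 stayed within the counting interval of the reported share or within 1.5 times the reported count. The other 29 are given here, and the cause was not tested except where the alternative counts fewer or more cells or genes by its own construction. With a score minimum of 3 the cycling share was 3.42% (dorsal) and 11.2% (ventral), with 10 it was 2.53% and 8.46%, and without marked doublets 2.48% and 9.32%. With no expression minimum, 3984 genes were higher and 1069 lower in dorsal cycling cells, 2365 and 701 in ventral ones, and 2106 and 1150 genes leaned to the dorsal and the ventral side between cycling cells. Against other cells of the same identity mix the lower genes numbered 43 (dorsal) and 9 (ventral). The ventral lower genes were 38 with TMM scaling and 41 without marked doublets. TMM moved the median log2 ratio of all genes from 0.0857 to -0.0148 (dorsal), from 0.0805 to -0.0349 (ventral) and from 0.0135 to -0.0890 (dorsal against ventral). By identity, dorsal mesothelial-like cells stood at 1.45% without marked doublets, an alternative added after the data were seen, and dorsal skeletal muscle-like cells at 0% with a score minimum of 10. Ventral fibroblast-like cells stood at 8.33% and 8.65% with resolutions of 0.5 and 2.0. Ventral mural-like cells stood at 12.2% and 12.3% with these resolutions and at 10.9% with a score minimum of 10, where ventral mesothelial-like cells stood at 14.9%. With 2 genes in place of 3, the mesothelial list was carried by 4.21% and the endothelial list by 5.36% of dorsal cycling cells, and the macrophage list by 5.15% and the endothelial list by 3.65% of ventral ones. With 4 genes the mesothelial list was carried by 14.5% of ventral cycling cells. No replicate could be left out. No paired analysis was possible because each domain has 1 library.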
